A study of Rattus norvegicus with 2 samples.

Results

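Interferon response genes, which cells switch on when an interferon binds to them, were examined in whole-kidney RNA of Dahl salt-sensitive (Dahl/SS) rats, the strain that the sample labels call Dahl-S. The list held 39 rat genes. For 38 of them the platform annotation gave 1 probe set with that gene as its only symbol, out of 22093 gene symbols with such a probe set on the array. The rule takes genes by name and uses no measured value, although the list was drawn up with earlier results of these data known. Ddx58, the gene of the RNA sensor RIG-I, had no probe set under that symbol and was skipped. The array carries the same gene under the symbol Rig1, at 809 in the pool without and 771 in the pool with phosphate binder, a match made through the Entrez number after the data were seen.

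Male Dahl/SS rats, obtained at 3 weeks of age, received chow with 8% NaCl for 4 weeks (DSH, labelled control), or the same salt with sucroferric oxyhydroxide, an iron-based intestinal phosphate binder (SF, 25 mg per g of chow), from 1 week after the salt began (DSH+2.5%SF, labelled 2.5%SF). Both groups therefore carried the salt load, and the salt diet is known from the methods of the study and not from the sample labels. Each group gave 1 pool of RNA from 3 rats, hybridized to 1 Clariom D rat array, and the pools are called the DSH pool and the SF pool. The comparison asks how kidney gene expression differed between salt-loaded rats with and without the phosphate binder. With 1 array per group there was no replicate error and no p-value, and an effect of SF and chance differences among the pooled rats cannot be told apart.

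Interferons are secreted proteins of antiviral and inflammatory defence. Type I and type III interferons signal through Janus kinases to a complex that contains STAT2 and IRF9 and binds a DNA element called the interferon-stimulated response element (ISRE), whereas interferon gamma acts mainly on a second element, the GAS. The genes they induce sense viral RNA, block its translation, degrade or edit it, trap virus particles at membranes, and attach the ubiquitin-like protein ISG15 to other proteins. In the kidney, tubular, endothelial and immune cells can all mount this response.

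Intensities are on a linear scale and had a median of 22.9 in the DSH pool and 23.7 in the SF pool. A gene was counted as detected when either pool reached 83.8, which 75% of all values lie below, and as dim otherwise. The log2 ratio is that of DSH+2.5%SF over DSH, and the Z-score is this ratio minus its mean over all 68842 probe sets (0.03), divided by their SD (0.34). A gene was called higher at a Z-score of at least 2.0 with a ratio of at least 1.5, and lower at a Z-score of at most -2.0 with a ratio of at most 0.66, which are the thresholds of the study. How the study computed its Z-score is not stated in its methods. Kidney markers were detected in both pools, with the proximal tubule gene Lrp2 at 181082 and 172864, and Umod of the thick ascending limb listed at 469762 in both pools.

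Almost all interferon response genes had similar levels in the 2 pools. One of the 38, Ifi27, was called lower in DSH+2.5%SF, at a 1.73-fold lower level, and none was called higher. Over all gene symbols 1.36% were called lower and 1.09% higher, so that a count of 1 gene says nothing particular about the list. Of the 21 detected members 1 was called, where 2.36% of all detected gene symbols were lower and 1.44% were higher. Of the 17 dim members none was called, against 0.767% lower and 0.883% higher among all dim gene symbols.

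**Figure D1:**
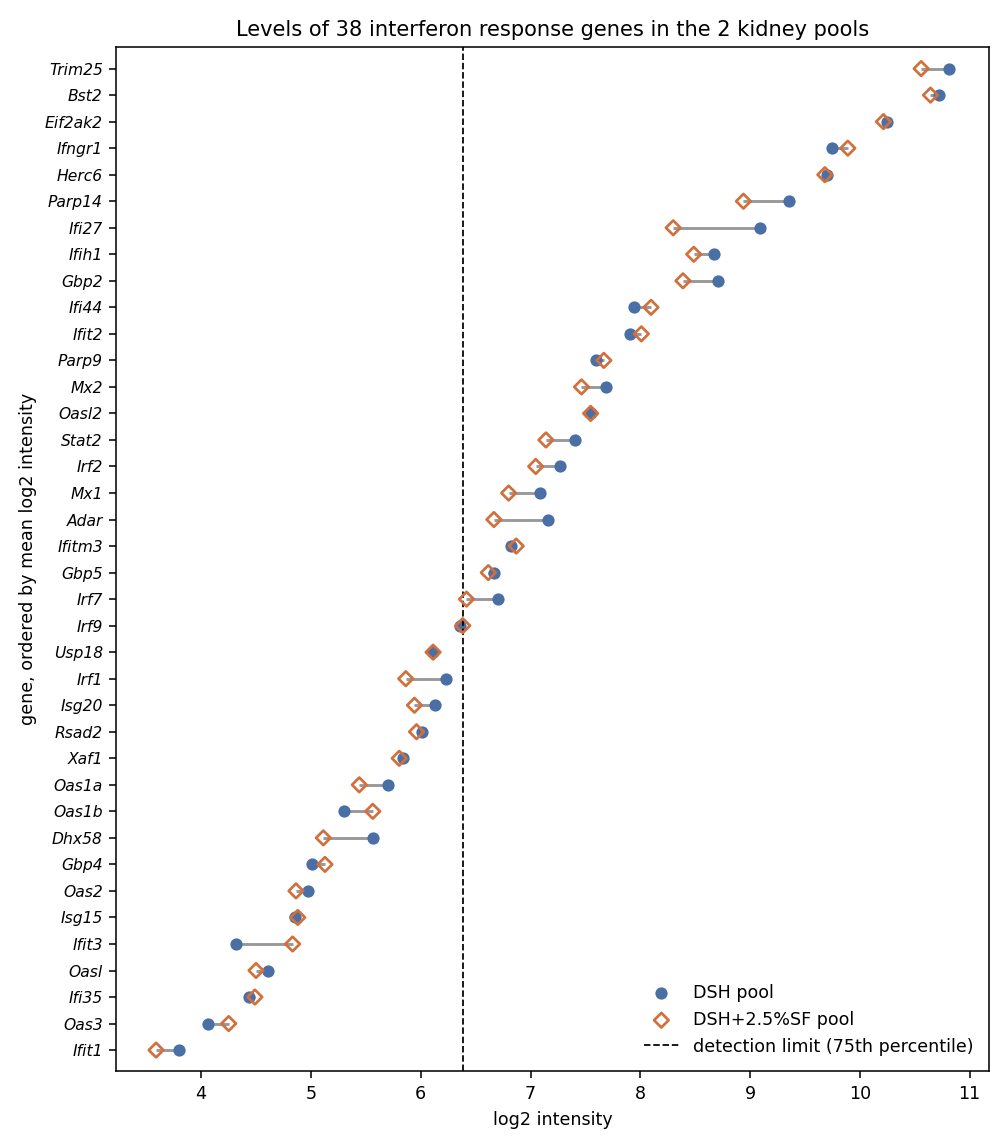
Log2 intensity of the 38 interferon response genes (rows, ordered by mean level) in the DSH pool (filled circles) and the DSH+2.5%SF pool (open diamonds), with the detection limit as a dashed line. Each point is 1 array of pooled RNA without an error bar. The widest gap among detected genes is that of Ifi27, at 546 and 315, and most other pairs of points lie close together.

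The median log2 ratio of the detected members was -0.19, with 15 of 21 below 0 and 1 at 0, and it was -0.07 over 35 members when the detection limit was set at the median of all intensities. All detected gene symbols had a median of -0.06 and 58.7% below 0. The dim members had a median of -0.04, with 9 of 17 below 0, and all dim gene symbols had a median of 0 with 40.8% below 0. Over all 38 members the median was -0.06, and without Ifi27 it was -0.05. The SD of the log2 ratio among the detected members was 0.23, smaller than the 0.30 of all detected gene symbols. At a mean log2 intensity between 3 and 5 the median was 0.02 over both 7 members and all 10047 gene symbols, and between 5 and 6.4 it was -0.04 over 10 members and -0.03 over 3963 gene symbols. Between 6.4 and 8 the median of 11 members was -0.22 and that of all 3580 gene symbols was -0.07. Between 8 and 11 the corresponding medians were -0.13 over 10 members and -0.06 over 3306 gene symbols. These are descriptions of 1 array against another, and no test was made of the list.

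**Figure D2:**
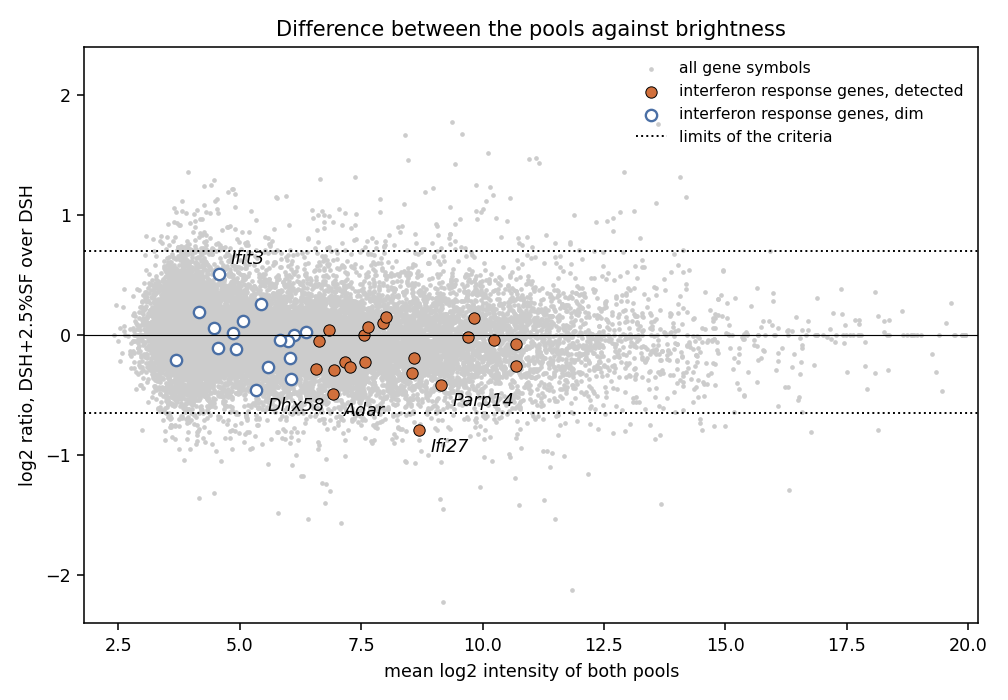
Log2 ratio of DSH+2.5%SF over DSH (vertical axis) against the mean log2 intensity of both pools (horizontal axis) for all 22093 gene symbols (grey) and the interferon response genes (orange, 21 detected; open blue, 17 dim). Dotted lines mark the limits that the Z-score and ratio criteria come to, 1.63-fold higher and 1.57-fold lower, and only Ifi27 of the interferon response genes lies beyond one of them.

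Ifi27 encodes a small interferon-inducible membrane protein and is induced strongly by type I interferon. Its intensity was 546 in the DSH pool and 315 in the SF pool, a log2 ratio of -0.79 with a Z-score of -2.43. It was thus well detected in both pools and lower in the pool from SF-treated rats. With the Z-score computed among the 1000 probe sets nearest in brightness it still passed, at -2.06, under a rule by which 0.883% of gene symbols were called lower and 1.06% higher. Of the 8269 detected gene symbols, 79 had a log2 ratio as low as that of Ifi27 or lower. The 250 bases before its start in the RefSeq promoter table (build GRCr8, chr6:128355062-128355311, plus strand) are shown because Ifi27 is the gene that was called, and the capitals mark matches to the ISRE core GAAANNGAAA.

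Ifi27: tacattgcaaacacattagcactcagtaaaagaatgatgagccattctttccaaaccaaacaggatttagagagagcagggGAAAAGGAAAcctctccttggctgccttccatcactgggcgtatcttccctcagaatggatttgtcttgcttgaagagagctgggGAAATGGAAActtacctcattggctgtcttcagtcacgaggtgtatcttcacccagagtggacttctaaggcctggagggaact

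The Ifi27 window holds the core 2 times in the same orientation, at 169 to 160 and at 84 to 75 bases before the start. The stretch from the far element on and the stretch from the near element on resemble each other, with 61 identical bases in 84 aligned columns of a local alignment. A match to the core is a description of letters and not a measured binding site.

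Matches to this core were common in front of the members. The promoter table held 29 of the 38 measured genes. Of these, 19 (65.5%) had GAAANNGAAA on either strand in the 250 bases before the start, against 3.61% of all 27457 genes in it. For the GAS core TTCNNNGAA, which reads the same on both strands, the figures were 7 of 29 genes (24.1%) and 8.19% of all genes. The elements of the other detected members that had one are printed with 10 bases of flank on each side where the window allowed, turned so that each core reads GAAANNGAAA, with capitals for the core and, for Bst2, for overlapping matches. They are printed so that the core and its flanks can be read gene by gene.

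Ifih1 (chr3:67684008-67684037, minus strand): gaagagaatcGAAACAGAAAccgatgtgtg
Irf7 (chr1:205800073-205800102, plus strand): tgcgtctcggGAAAATGAAAcctaaactgt
Oasl2 (chr12:47383317-47383346, plus strand): ctcaagcctgGAAACTGAAAccaaagcttt
Eif2ak2 (chr6:21941128-21941153, plus strand): agtccgccggGAAAACGAAAcagaga
Gbp2 (chr2:234005686-234005715, minus strand): ttaagacaatGAAAGTGAAActaaaaaact
Gbp5 (chr2:233910933-233910962, minus strand): cctctaaactGAAATTGAAActacacaagt
Bst2 (chr16:18255073-18255108, minus strand): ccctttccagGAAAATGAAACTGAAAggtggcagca
Ifitm3 (chr1:205541783-205541812, minus strand): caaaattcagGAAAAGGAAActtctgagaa
Parp14 (chr11:78408048-78408077, plus strand): tccaggaaatGAAAGTGAAAgaagtaagtt
Ifi44 (chr2:243303847-243303876, plus strand): cctgggaaatGAAACTGAAActcagtgtgc

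Members with and without the ISRE core had similar ratios. The median log2 ratio was -0.05 over the 19 genes with the core, from -0.79 for Ifi27 to 0.51 for Ifit3, and -0.06 over the 10 genes without it. Among detected members the medians were -0.07 over 11 genes with the core and -0.14 over 6 without. The 7 members with the GAS core had a median of -0.07. Of the measured members, Ifit1, Ifit2, Isg15, Usp18, Oas2, Adar, Mx2, Irf2 and Dhx58 were not in the promoter table.

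Among the sensors of viral RNA, neither measured gene was called. Ifih1, which encodes the sensor MDA5 of long double-stranded RNA, was at 409 in the DSH pool and 359 in the SF pool, a log2 ratio of -0.19. Dhx58, which encodes LGP2, a regulator of the other sensors, was dim at 47.4 and 34.6, a log2 ratio of -0.45 that was the lowest of the dim members. Both ratios were below 0, as was that of Rig1 at -0.07. The receptor subunit gene Ifngr1, which encodes the ligand-binding chain for interferon gamma, was at 859.6 and 949, a log2 ratio of 0.14.

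Of the 5 transcription factor genes 4 lay below 0, and none was called. Below 0 lay 47.5% of all gene symbols and 58.7% of the detected ones. Stat2, which encodes a component of the ISRE-binding complex ISGF3, was at 169 in the DSH pool and 141 in the SF pool, a log2 ratio of -0.26. Irf7, the master regulator of type I interferon production, was at 104 and 85.4, close to the detection limit, with a ratio of -0.28. Irf2, which encodes a repressor that competes with IRF1, was at 154 and 132, with a ratio of -0.22. None of these 3 detected factors passed the criteria. Irf1, an activator induced by interferon gamma, was dim at 75.02 and 58.2, a log2 ratio of -0.37. Irf9, the DNA-binding subunit of ISGF3, was the member just below the detection limit, at 81.8 and 83.4, and was almost equal in the pools.

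Of the ISG15 system and ubiquitin ligase genes, Isg15, Usp18 and Herc6 were nearly equal in the pools, and Trim25 had a ratio below 0. None was called. Isg15 itself, usually among the genes that respond most to type I interferon, was dim at 29.0 in the DSH pool and 29.4 in the SF pool. Usp18, which encodes the protease that removes ISG15 and damps receptor signalling, was listed at the same 69.2 in both pools. Such equal values occurred at 5138 of all probe sets (7.46%), and Oasl2 was the other member among them. Herc6, which encodes an ISG15 ligase in mice, was at 829.8 and 821, a log2 ratio of -0.02 that turned to 0.02 when a loess trend was subtracted. Trim25, whose product is a ubiquitin ligase that activates RIG-I, was at 1802 and 1508, a log2 ratio of -0.26.

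The IFIT genes, whose products bind foreign RNA ends and hinder translation, pointed both ways. Ifit2 was the detected one, at 240.0 in the DSH pool and 258 in the SF pool, a log2 ratio of 0.10. Ifit3 was dim, at 19.98 and 28.5, and its log2 ratio of 0.51 (1.43-fold) was the highest of all members, with a Z-score of 1.43. Ifit1 was dim as well, at 13.9 and 12.0, with a ratio of -0.20. None of the 3 passed the criteria.

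Most OAS genes, which encode synthetases of the 2-5A messenger that activates RNase L, and relatives of them, were dim. Oasl2 was the exception, at 187 in both pools, with a ratio from -0.05 to 0.03 under the other scalings. The paralogs Oas1a and Oas1b pointed in opposite directions: Oas1a was at 52.2 in the DSH pool and 43.4 in the SF pool, and Oas1b was at 39.4 and 47.3. Their log2 ratios were -0.27 and 0.26, and for close copies such as these, and likewise within the IFIT, Mx, guanylate-binding and IFITM families, the split of signal between probe sets is uncertain. Oas3 was at 16.7 and 19.0, with a ratio of 0.19, and Oas2 and Oasl each had a ratio of -0.11 at intensities from 22.6 to 31.4.

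Of the enzymes that act on RNA, Adar was the member with the lowest ratio after Ifi27. Adar encodes the adenosine deaminase that edits double-stranded RNA, and was at 143 in the DSH pool and 102 in the SF pool, a log2 ratio of -0.49 with a Z-score of -1.54. Eif2ak2, which encodes the kinase PKR that halts translation, was bright and nearly equal, at 1218 and 1188. Isg20, an exonuclease gene, was dim at 70.2 and 61.5. None of these 3 passed.

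The 5 listed Mx and guanylate-binding GTPase genes stood on the lower side with 1 exception, whereas the guanylate-binding genes measured outside the list lay above 0. Mx1, whose product blocks nuclear steps of viral replication, was at 136 in the DSH pool and 111 in the SF pool, a log2 ratio of -0.29. Mx2, its cytoplasmic relative in rodents, was at 206 and 177, a ratio of -0.23. Neither Mx gene passed the criteria. Gbp2, a target of interferon gamma that acts on intracellular pathogens, was at 417 and 335, with a ratio of -0.32. Gbp5, which promotes inflammasome assembly, was at 101 and 98.0. Gbp4, the dim listed gene of the family, was at 32.2 and 35.0, with a ratio of 0.12. Outside the list, the dim Gbp1, Gbp3 and Gbp6 had ratios of 0.37, 0.22 and 0.13. Gbp7 was detected, at 281 and 292, with a ratio of 0.05. None of the guanylate-binding genes was called.

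The membrane effectors were nearly level. Bst2, which encodes tetherin, a protein that holds budding virus on the cell surface, was bright at 1683 in the DSH pool and 1599 in the SF pool, a log2 ratio of -0.07. Ifitm3, which encodes a protein that hinders fusion of virus with endosomes, was at 113 and 117, a ratio of 0.05 whose sign turned with each array centred on its median. Rsad2, the gene of viperin, which makes a chain-terminating nucleotide, was dim at 64.4 and 62.3. All 3 had the ISRE core, and none passed the criteria.

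Parp14 and Parp9, both genes of the ADP-ribosyltransferase family, were unlike each other. Parp14 was at 653 in the DSH pool and 491 in the SF pool, a log2 ratio of -0.41, the lowest of the detected members after Ifi27 and Adar. Parp9 was at 194 and 203, a ratio of 0.07. Of the remaining interferon-induced genes, Ifi44, a cytoplasmic antiviral protein gene, was at 246 and 274, and its ratio of 0.15 was the highest of the detected members. Xaf1, which encodes a pro-apoptotic factor, was dim at 57.3 and 55.9, and Ifi35, which encodes a leucine zipper protein, was dim at 21.6 and 22.5.

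**Figure D3:**
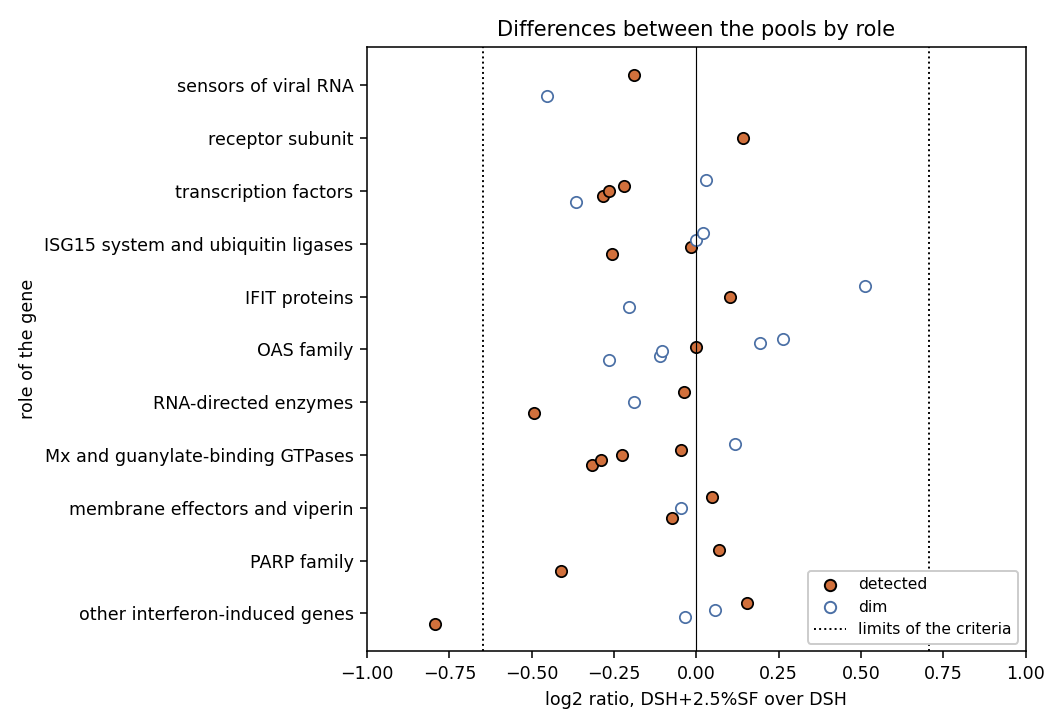
Log2 ratio of DSH+2.5%SF over DSH (horizontal axis) for each interferon response gene, grouped by role (rows). Filled points are the 21 detected genes, open points the 17 dim genes, dotted lines the limits of the criteria. The 3 detected transcription factor genes lie together between -0.28 and -0.22, whereas Ifi27 stands alone at -0.79.

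The wider interferon pathway was followed through 98 measured genes outside the list, in 5 further lists. Of these, 1 was called lower, the dim ligand gene Ifnk, and none higher, beside 1.36% lower and 1.09% higher over all gene symbols and 0.767% lower over dim ones. Their median log2 ratio was -0.10 with 66 of 98 below 0, beside a median of 0 with 47.5% below 0 over all gene symbols. The 43 detected ones had a median of -0.13 with 32 below 0, beside the -0.06 and 58.7% of all detected gene symbols, and none of them was called.

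All 9 measured interferon ligand genes were dim. Ifnk, the gene of interferon kappa, a type I interferon known from keratinocytes, was at 25.4 in the DSH pool and 14.0 in the SF pool, 1.81-fold lower. Ifnb1 was listed at 16.1 in both pools, and Ifng, the gene of interferon gamma, was at 14.7 and 13.2. No ligand gene thus reached the detection limit in either pool, and the call of Ifnk rests on values below it.

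Of 13 measured receptor and signalling genes none was called, and 10 were below 0, with a median of -0.16. The 9 detected ones had a median of -0.10, beside -0.06 with 58.7% below 0 over all detected gene symbols. Ifngr2, the second chain of the interferon gamma receptor, had the lowest ratio, at 127 in the DSH pool and 85.7 in the SF pool, a log2 ratio of -0.56 with a Z-score of -1.75. The ratios of the 2 receptor chains thus lay on opposite sides of 0, and neither was called. Stat3, a factor shared with the interleukin-6 family, was at 3473 and 2656, with a ratio of -0.39. Jak1, a kinase of all interferon receptors, was at 1678 and 1474, and Pias1, which encodes a SUMO ligase, was at 931 and 1052. Both receptor genes for type I interferon were close to level, Ifnar1 with a ratio of -0.10 and Ifnar2 with a ratio of 0.06.

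Of 14 genes that lead to interferon production none was called, 8 were above 0 and 9 were dim. Their median was 0.06, and 0.01 with each array centred on its median and 0.04 with quantile normalization. The 5 detected ones had a median of 0.09, beside -0.06 over all detected gene symbols. Tlr3, the endosomal receptor of double-stranded RNA, was at 1661 in the DSH pool and 1979 in the SF pool, a log2 ratio of 0.25. Mavs, the mitochondrial adaptor of the RNA sensors, was at 686 and 786, with a ratio of 0.20. Irf3, the factor they activate, was at 253 and 203, with a ratio of -0.32, and Tbk1, the kinase between them, was at 623 and 582. Ratios in this list thus lay on both sides of 0.

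The 42 other measured interferon-stimulated genes had a median of -0.16, with 34 below 0 and none called. The 22 detected ones had a median of -0.16, beside -0.06 with 58.7% below 0 over all detected gene symbols. The other 20 were dim, and all dim gene symbols had a median of 0 with 40.8% below 0. Ifitm2, a close relative of Ifitm3, was at 1993 in the DSH pool and 1434 in the SF pool, a log2 ratio of -0.47. Ifi44l, a relative of Ifi44, was at 167 and 126, a ratio of -0.41. Both thus had lower ratios than the listed members they resemble. Slfn2, a schlafen gene, was at 95.4 and 74.8, and Parp12, another ADP-ribosyltransferase gene, was at 147 and 117, with ratios of -0.35 and -0.33.

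Among 20 measured genes that respond mainly to interferon gamma none was called, and the median was -0.06, with 12 below 0 and 8 above. The 7 detected ones had a median of -0.06, the same as the -0.06 over all detected gene symbols. B2m, the light chain of MHC class I, was at 24463 in the DSH pool and 17984 in the SF pool, a log2 ratio of -0.44. Psme1 and Psme2, which encode the proteasome activator PA28, were at 557 and 452 and at 454 and 398. Psme2 has 2 probe sets, and its ratio of -0.19 was -0.36 with their mean. Irgm, an immunity-related GTPase gene, was among the 8 above 0, at 83.4 and 105, with a ratio of 0.33. The highest ratio of this list was that of the dim Gbp1, at 51.7 and 66.7, with 0.37. Of the chemokine genes used as readouts of this response, Cxcl10 and Cxcl11 each had a ratio of -0.06, and Cxcl9 was dim at 53.6 and 40.4, with a ratio of -0.41.

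**Figure D4:**
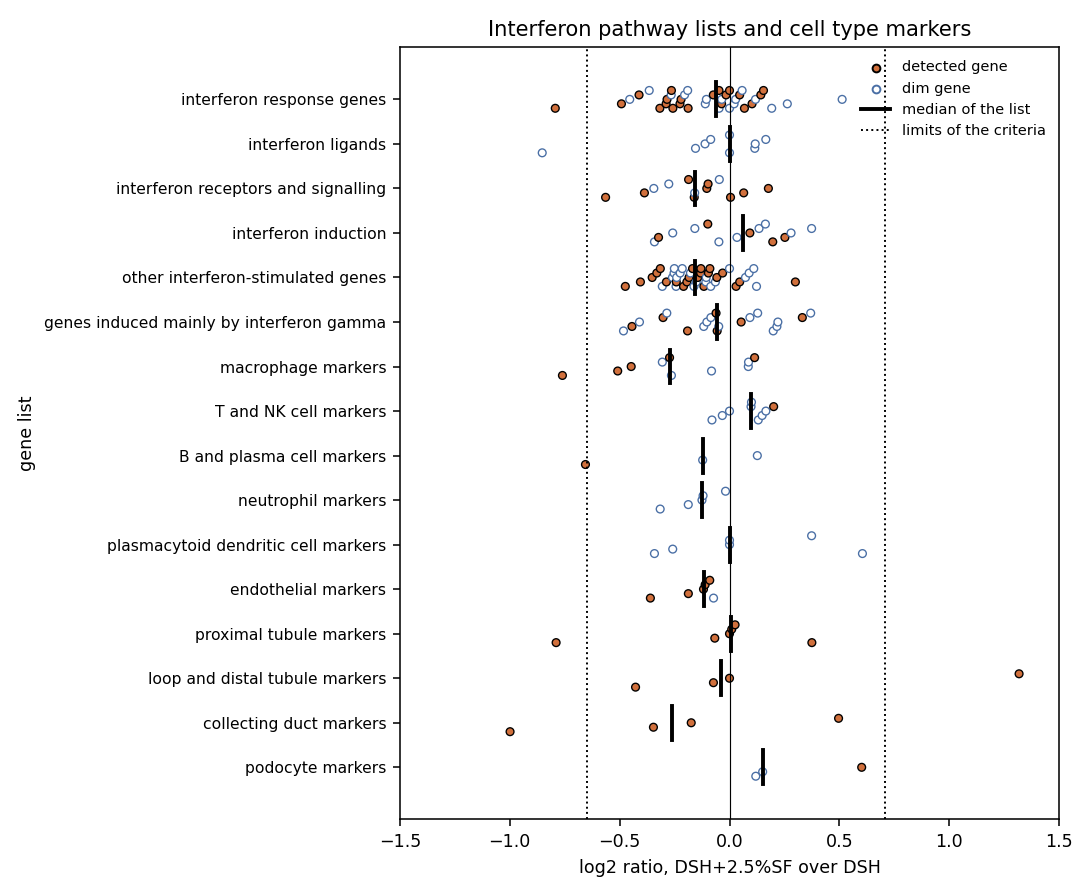
Log2 ratio of DSH+2.5%SF over DSH (horizontal axis) for the interferon response genes, the 5 further interferon lists and the cell type markers (rows). Filled points are detected genes, open points dim genes, thick bars the medians and dotted lines the limits of the criteria. The interferon lists have medians between -0.16 and 0.06, and the macrophage markers have a median of -0.27.

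Immune cells both make and answer interferons, and in whole-kidney RNA fewer cells of a type and less RNA per cell cannot be told apart. Of 10 macrophage markers 7 were below 0, with a median of -0.27 and a summed intensity of 1506 in the DSH pool and 1194 in the SF pool. C1qa was called lower among them, at 401 and 236, a call that was lost with the brightness-dependent Z-score of -1.84 and with ratio limits of 2 and 0.5. Csf1r was at 383 and 281, and Adgre1 at 113 and 79.2, whereas Cd68 was at 271 and 294 and C1qb and Cd163 each had a ratio of 0.09. Of 9 T and NK cell markers 2 were below 0, with summed intensities of 461 and 512, most of which was Cd4, the only detected one, at 298 and 343. The 6 plasmacytoid dendritic cell markers, of a cell type that makes much type I interferon, were all dim, with summed intensities of 204 and 205 and Siglech at 13.0 in both pools. The 5 neutrophil markers, all dim, summed to 90.5 and 80.9. B and plasma cell markers summed to 155 and 112, most of which was Cd79a, called lower at 119 and 75.3. Its partner Cd79b was at 19.1 and 20.8. The call of Cd79a was lost with the brightness-dependent Z-score of -1.73, quantile normalization, loess subtraction, equal intensities left out, or ratio limits of 2 and 0.5. Endothelial markers, all 6 below 0, summed to 6861 and 6224. Of all detected gene symbols 58.7% lay below 0, and of all dim ones 40.8%. Beside the calls of C1qa and Cd79a, 2.36% of all detected gene symbols were called lower. A log2 ratio of 0 was listed for 1 T and NK cell marker and for 2 plasmacytoid dendritic cell markers. The part of these cell types in the interferon values was not tested.

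Among tubular markers, Aqp1 and Aqp3, water channel genes, were called lower, at 31005 and 17943 and at 659.9 and 330.3, and Calb1, a calcium-binding protein gene of the distal tubule, was called higher, at 10832 and 27005. Of these, Aqp1 lost its call with the brightness-dependent Z-score, at -1.42. Both Aqp1 and Aqp3 lost their calls with ratio limits of 2 and 0.5. All tubular markers were detected, and over all detected gene symbols 2.36% were called lower and 1.44% higher. The other tubular markers were not called. With the called genes counted, 3 of 6 proximal tubule, 1 of 4 loop and distal tubule and 1 of 4 collecting duct markers lay above 0. The 1 loop and distal tubule marker above 0 was Calb1 itself. All 3 podocyte markers lay above 0. The part of tubular cells and podocytes in the interferon values was not tested either.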

How the data were processed

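Whole-kidney RNA of DSH and DSH+2.5%SF rats was measured on 2 Clariom D rat arrays, 1 pool per group. The authors made the deposited intensity values with RMA in Affymetrix Expression Console 1.4.1, per the labels, which corrects the background and normalizes the arrays to each other. The values are linear, and for the genome build of the array design the sources used here give no name. Their number limits the precision, and no replicate check was possible. Log2 ratios, Z-scores and calls were computed for all 68842 probe sets, of which 23446 have 1 gene symbol in the platform annotation, 505 several and 44891 none used here. Genes with several probe sets were represented by the brightest. The members and lists were chosen with earlier results of these data known. Genes named in the text were all members that were detected or called, the 3 highest and 3 lowest other dim members, and, of the further lists, every called gene and up to 4 detected genes with the largest absolute log2 ratio. The remaining members, Rig1, Ifnb1, Ifng, Ifnar1, Ifnar2, Cxcl9, Cxcl10, Cxcl11, Lrp2, Umod, Siglech and the uncalled macrophage, T and B cell markers were named after their values were seen. So were Gbp1, Gbp3, Gbp6 and Gbp7. Missing symbols of the further lists were looked up through RefSeq synonyms and Entrez numbers. Promoter sequences are from RefSeq (GRCr8), matched by symbol and checked by Entrez number, and both strands were searched. The code for the calls was run on simulated log2 ratios with less spread than those here and with larger shifts than that of Ifi27. That run checks the code only and cannot show whether the calls made here are right. Python 3.11.15, numpy 2.4.6, pandas 2.3.3, statsmodels 0.14.6, matplotlib 3.10.9 and, for the alignment, Biopython 1.88 were used. The alternatives tried were 10 settings of the criteria, the scaling, the probe sets and the detection limit, and 1 added later.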

Additional observations from a re-analysis of the deposited data

How the results depend on the processing

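The counts of members called lower (1) and higher (0) were the same with the brightness-dependent Z-score, the ratio alone, median centring, quantile normalization, loess subtraction, gene means and equal intensities left out. With the ratio limits set to 2 and 0.5, no member was lower (0) and no further pathway gene was (0), since Ifi27 and Ifnk differed by less than that; Aqp1, Aqp3, C1qa and Cd79a lost their calls there too. With the detection limit at the median of all intensities, 35 members counted as detected, their median log2 ratio was -0.0736, and that of the 3 members left dim turned to 0.0573, which follows from the moved limit. The medians of all members ranged from -0.11 to -0.04 and those of the detected members under the scaling alternatives from -0.24 to -0.16. The median of all gene symbols moved too, from 0 to -0.05 with median centring, -0.04 with quantile normalization and -0.03 with loess subtraction. With Rig1 counted as Ddx58, an alternative chosen after seeing the data, the detected median was -0.13. No paired analysis was possible because each group has 1 array. That number limits the precision, and dim members carry little signal over background.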
